A study of Homo sapiens with 8 samples.

Results

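Genes made as a single exon were followed in newly made RNA of U2OS cells, a human osteosarcoma line. A gene was taken where its listed end minus start differed from its listed exon length by at most 2 bases in all 8 libraries, on chromosomes 1 to 22. Symbols of replication-dependent histones (77 genes) and of olfactory receptors (376 genes) were left out, which kept 703 of 19414 coding genes listed. For 696 of the 703 the difference was 0, and for the other 7, among them FOXD1, SRSF8 and RIOX1, it was 2. The nearest genes outside were KRTAP19-6 and KRTAP7-1 with a difference of 3, and TRIL and LENG9 with 5. The assay was TT-seq, in which cells take up the uridine analogue 4-SU so that RNA made during labelling can be told from older RNA. There were 4 groups of 2 libraries, labelled by genotype as WT, Zab, MYC O/E (overexpression of MYC) and Zab + MYC O/E, with no treatment, clone or culture named. The labels do not state the Zab construct. As background, Zαβ is the usual name for the paired domains of the RNA-editing enzyme ADAR that bind left-handed nucleic acid. No source states whether the 2 libraries of a group were grown apart, and the p-values cover the spread between libraries alone, which may be technical.

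A gene with a single exon gives a messenger RNA that needs no splicing, and its transcript is as long as the gene. Such genes are often rapidly induced, as with JUN and the Hsp70 genes, or arose as retrotransposed copies of spliced genes, as with PCBP1 and CSTF2T. Large families that are silent in most tissues, such as keratin-associated proteins, type I interferons and many G protein-coupled receptors, are also built this way. In such a gene every sense read over its span is an exon read, whereas for spliced genes most newly made RNA lies in introns, which were not counted here.

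The sequences before the start sites of 5 members are shown because these members gave some of the largest differences among the groups. They are the 250 bases before the start from RefSeq (GRCh38.p14), read 5′ to 3′ on the gene's strand. In HSPA1A (chr6:31815293-31815542, + strand), HSPA1B (chr6:31827488-31827737, + strand) and HSPA6 (chr1:161524290-161524539, + strand), which encode inducible Hsp70 chaperones, capitals mark the units to which heat shock factors bind, written as GAANNTTC or TTCNNGAA on either strand.
HSPA1A: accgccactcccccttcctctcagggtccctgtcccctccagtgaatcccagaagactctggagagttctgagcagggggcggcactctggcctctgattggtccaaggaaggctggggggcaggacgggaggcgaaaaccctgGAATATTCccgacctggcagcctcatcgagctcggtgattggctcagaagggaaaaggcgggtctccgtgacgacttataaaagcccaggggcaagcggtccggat
HSPA1B: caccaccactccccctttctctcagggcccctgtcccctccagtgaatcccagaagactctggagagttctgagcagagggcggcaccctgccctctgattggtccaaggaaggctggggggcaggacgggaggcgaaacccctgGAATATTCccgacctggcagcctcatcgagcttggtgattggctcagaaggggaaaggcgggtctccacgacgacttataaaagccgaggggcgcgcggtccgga
HSPA6: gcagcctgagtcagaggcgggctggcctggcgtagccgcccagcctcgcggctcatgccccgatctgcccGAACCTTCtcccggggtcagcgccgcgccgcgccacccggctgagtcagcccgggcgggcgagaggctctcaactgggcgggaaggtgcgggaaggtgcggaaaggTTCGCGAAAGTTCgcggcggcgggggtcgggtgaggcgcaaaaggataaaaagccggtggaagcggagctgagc
HSPA1A and HSPA1B each held 1 such unit, 106 and 105 bases before the start, and HSPA6 held 3, of which 2 overlap. Either form was found in 11.6% of the 35116 RefSeq promoters searched over the same length. The windows of HSPA1A and HSPA1B were identical at 235 of 251 aligned columns (93.6%), and they matched HSPA6 at 51.5% and 50.7%.

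The other pair is KCTD12 (chr13:76886406-76886655, - strand), the member with the largest rise in MYC O/E over WT on the log2 scale used below, and KRTAP2-3 (chr17:41060115-41060364, - strand), the member with the largest fall. Capitals mark CG dinucleotides, the step that most readily takes the Z form.
KCTD12: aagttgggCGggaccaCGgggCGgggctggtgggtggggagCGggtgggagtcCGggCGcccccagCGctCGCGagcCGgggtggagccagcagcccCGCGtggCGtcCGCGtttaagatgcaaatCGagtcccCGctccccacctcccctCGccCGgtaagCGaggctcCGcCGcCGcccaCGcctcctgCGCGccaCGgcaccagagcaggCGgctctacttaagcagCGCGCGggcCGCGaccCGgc
KRTAP2-3: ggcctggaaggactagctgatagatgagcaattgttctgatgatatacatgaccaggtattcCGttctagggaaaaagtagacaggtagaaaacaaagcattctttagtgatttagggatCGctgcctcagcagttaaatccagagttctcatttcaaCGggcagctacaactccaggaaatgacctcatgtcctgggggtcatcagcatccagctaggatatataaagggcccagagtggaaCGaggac
KCTD12 had 34 CG dinucleotides in this window and KRTAP2-3 had 4, against a median of 11 over the 35116 promoters, of which 93.9% had at least 1. The word CACGTG, the E-box that MYC and MAX bind, was in none of the 5 windows and in 6.34% of all promoters (both strands). A match or its lack is a description of these letters only. Promoters were found for 157 of the 199 members tested (78.9%), under the 80% that a survey over members would need, so none was made.

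Libraries held 1839960 to 4072059 recovered reads, of which 15917 to 35530 fell in members. Transcripts of MYC were at 764 ± 17.1 CPM in WT, 966 ± 69.5 in Zab, 6592 ± 20.2 in MYC O/E and 762 ± 14.2 in Zab + MYC O/E (SD, n = 2; CPM is the usual count scaled to library size, here after TMM scaling between libraries). Exons of ADAR, from which a Zαβ construct would be built, gave 33906 ± 11.6 CPM in WT, 543 ± 33.9 in Zab, 455 ± 13.1 in MYC O/E and 32311 ± 41.8 in Zab + MYC O/E. The libraries labelled WT were thus high in ADAR and those labelled Zab were not, and those labelled Zab + MYC O/E were not high in MYC. Group names below are therefore those of the labels, and every direction is between libraries labelled so. Between a WT and a Zab + MYC O/E library the chi-square per gene was 2.71 to 2.81, where libraries of one group gave 1.99 to 2.05 and every other pair 25.5 to 43.0. In coding exons the Zab libraries had 6.55 ± 0.154 reads per 100 tags, against 13.1 to 13.7 for the means of the other groups. Of 10 osteoblast-lineage markers, SP7 had no read, RUNX2, COL1A1 and SPARC were present, and 6 averaged at least 1 CPM. Their sum was 899 to 907 CPM in WT, 817 to 832 in Zab, 586 to 599 in MYC O/E and 932 to 935 in Zab + MYC O/E, while RUNX2 alone averaged 8.62 in WT and 31.4 in MYC O/E. The 4 neural markers summed to 134 to 156 CPM in WT, 87.8 to 93.2 in Zab, 140.0 to 145 in MYC O/E and 128 to 129 in Zab + MYC O/E. Most of that sum was NEFL (122 CPM in WT and 129 in MYC O/E). SYP averaged 17.1 in WT and 0.764 in MYC O/E, while GAP43 averaged 1.75 and 5.07 and RBFOX3 3.54 and 7.45. The summed epithelial list (6 genes, nearly all KRT8 and KRT18) was 1370 to 1402 CPM in WT, 2344 to 2483 in Zab, 867 to 907 in MYC O/E and 1268 to 1289 in Zab + MYC O/E, and the part of these marker shifts in the results was not tested. EPCAM and CDH1 averaged at most 4.29 and 2.11 CPM in any group. Blood and endothelial lists summed to at most 1.04 and 2.095 CPM in any library.

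Most members were silent in these cells. No read was found in any library for 322 of the 703, and 189 had a read in all 8. Of 93 keratin-associated and cornified envelope genes, 83 had no read, and KRTAP2-3 held 514 of the 537 reads of the rest. Type I interferons, the antiviral cytokines, had 4 reads in all from 1 of 16 genes. Among G protein-coupled receptors, 36 of 77 had a read and 9 were high enough to test. By contrast, all 6 Frizzled receptors of the Wnt pathway had reads, as did 14 of 15 protocadherins, though only 2 of the latter were tested. In all, 199 members passed the filter on low reads and 504 did not. The 199 held 99.0% of the members' summed CPM, and 45 of them had fewer than 10 reads in both libraries of at least 1 group. Those 45 could pass only through the groups where they were higher, so counts over the 199 describe the tested members and not all members.

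Per kilobase of length, the highest member was PCBP1, a poly(C)-binding RNA-binding protein, at 312 CPM per kb over all libraries. It was followed by GPX1 (glutathione peroxidase) at 211, SFN (14-3-3 sigma) at 196, SF3B5 (a subunit of the splicing factor SF3B) at 189 and ID1 (an inhibitor of helix-loop-helix factors) at 165 CPM per kb. CCDC85B, HSPA1A and RRS1, a ribosome assembly factor, came next at 91.1, 86.0 and 74.6 CPM per kb. GPX1 and ID1 are also known as spliced transcripts, and the forms listed here keep the intron. The median of the 381 members with a read was 1.004 CPM per kb. PCBP1 stood at 463 and 506 CPM in WT, 626 and 622 in Zab, 590.2 and 594 in MYC O/E and 449 and 458 in Zab + MYC O/E. Both Zab and both MYC O/E libraries were above all 4 others for this gene.

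Members took 0.756% and 0.766% of reads in WT, 0.865% and 0.879% in Zab, 0.873% and 0.873% in MYC O/E, and 0.778% and 0.775% in Zab + MYC O/E. The Zab and MYC O/E libraries did not overlap with the others, although 2 libraries against 2 cannot give an exact permutation p below 0.333. Of 156 tested members with a mean of at least 5 CPM, 56 were highest in Zab, 57 in MYC O/E, 27 in WT and 16 in Zab + MYC O/E. The highest group mean was 1.82 times the lowest at the median of these members, at least 2 times for 63 and under 1.2 times for 8. These counts are for members only and use TMM-scaled CPM, so they depend on the scale. On the deposited values, the median log2 difference over all genes was -0.63 in Zab over WT and 0.47 in MYC O/E over WT. Precision followed the level: the median standard error of a difference was 0.13 (log2) for the 51 tested members at 50 CPM or more and 0.44 for the 96 under 20 CPM.

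The first comparison was MYC O/E over WT. These groups differed in both MYC (6592 against 764 CPM) and ADAR (455 against 33906 CPM), whose parts cannot be told apart here. In MYC O/E over WT, 51 of 199 members rose and 28 fell (limma, Benjamini-Hochberg adjusted p under 0.05 over 11985 genes). Among all genes tested 44.1% were called, 22.2% higher and 21.9% lower. The members' median difference was 0.16 on the log2(CPM + 1) scale, against -0.01 for all genes. By the naming rule the largest rises were, in order, in KCTD12, HSPA6, FRAT2, HSPA1B, GPR27, CCDC85B, KBTBD6 and CEBPD, and KRTAP2-3, FOXD1, KCTD11 and JUN were among the members that fell. All of these but GPR27 have a panel in the plot of 12 genes.

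**Figure D1:**
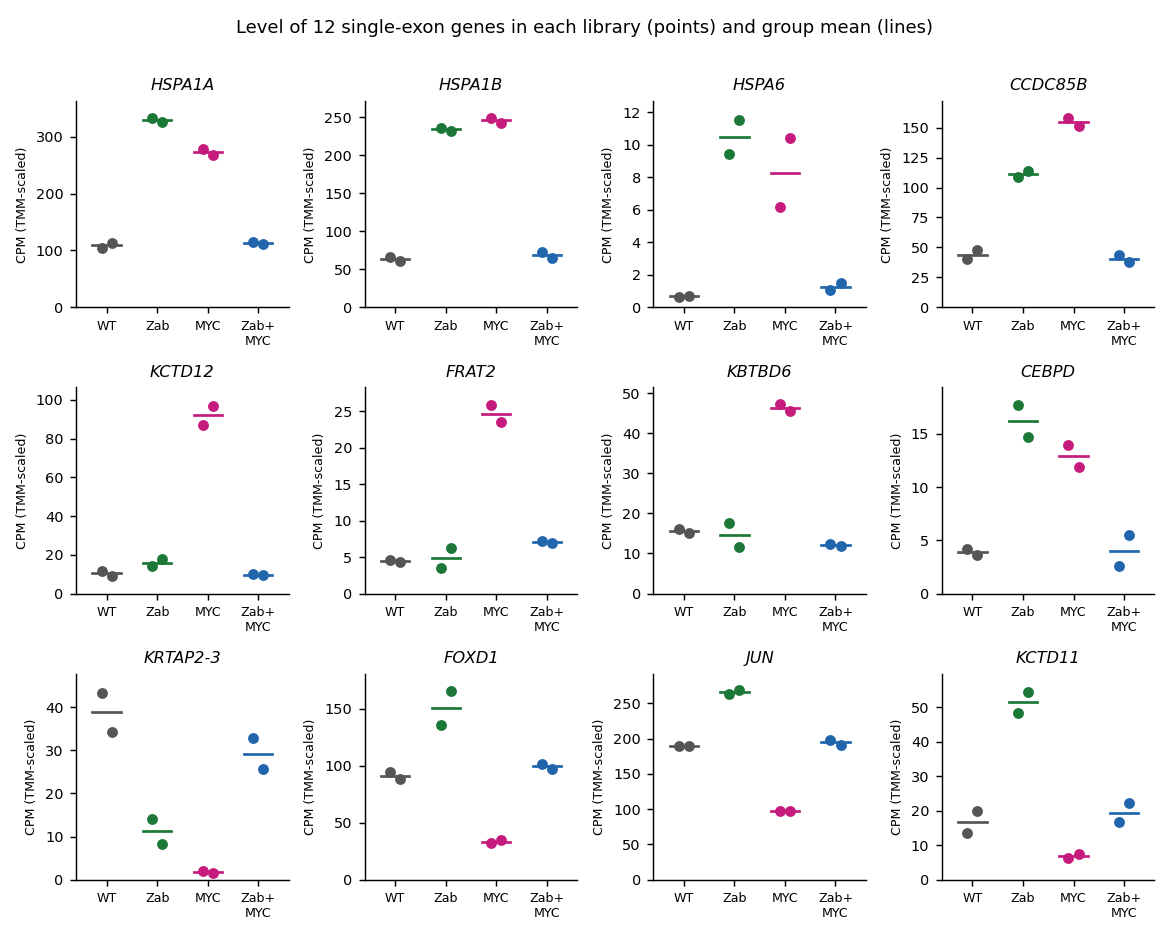
Level in TMM-scaled CPM (linear axis from 0, own scale per gene) of 12 single-exon genes in each of the 8 libraries (points) and the mean of each group of 2 (lines). KCTD12, FRAT2 and KBTBD6 were high in MYC O/E, HSPA1A, HSPA1B, HSPA6, CCDC85B and CEBPD in Zab and MYC O/E, and KRTAP2-3 was low in both; FOXD1, JUN and KCTD11 were low in MYC O/E and high in Zab, where JUN turned the other way on the deposited scale.

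KCTD12 (chr13:77454310-77460540, - strand of hg19, 6230 bases), an auxiliary subunit of GABA-B receptors, stood at 11.7 and 9.3 CPM in WT, 14.1 and 17.8 in Zab, 87.3 and 96.9 in MYC O/E and 9.86 and 9.43 in Zab + MYC O/E. Both MYC O/E libraries were far above the other 6, and the rise over WT was 8.79-fold (3.03 ± 0.25 log2 ± SE, adjusted p 7.59e-11). FRAT2, which binds the kinase GSK3 in Wnt signalling, stood at 4.54 and 4.29 CPM in WT, 3.54 and 6.28 in Zab, 25.8 and 23.5 in MYC O/E and 7.27 and 6.95 in Zab + MYC O/E. It was 5.59-fold higher in MYC O/E than in WT (2.24 ± 0.36, adjusted p 1.09e-05), with no overlap between MYC O/E and any other group. KBTBD6, a substrate adaptor of a CUL3 ubiquitin ligase, was at 47.2 and 45.5 CPM in MYC O/E and 16.2 and 15 in WT, a 2.97-fold rise (adjusted p 2.32e-05). The orphan receptor GPR27 was at 19.6 and 18.8 CPM against 7.13 and 2.86 in WT (3.85-fold, adjusted p 0.00043). CCDC85B, a coiled-coil protein, stood at 40.5 and 47.6 CPM in WT, 108 and 114 in Zab, 158 and 152 in MYC O/E and 43.6 and 37.5 in Zab + MYC O/E. Its Zab and MYC O/E libraries were all above those of WT and Zab + MYC O/E, and it rose 3.51-fold in MYC O/E over WT (1.79 ± 0.13, adjusted p 1.02e-11).

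Of the 7 heat shock members listed, 3 were tested, HSPA1A, HSPA1B and HSPA6, and each rose in MYC O/E, where 22.2% of all genes rose. HSPA6 had 4 reads in WT in all and passed the filter only through the groups where it is high, so it adds nothing to that count. HSPA1B (chr6:31795515-31798031, + strand of hg19) stood at 66.1 and 61.5 CPM in WT, 236 and 233 in Zab, 249 and 243 in MYC O/E and 72.7 and 65.5 in Zab + MYC O/E. HSPA1A (chr6:31783320-31785719, + strand of hg19) stood at 105 and 114 CPM in WT, 334 and 327 in Zab, 279 and 269 in MYC O/E and 114 and 111 in Zab + MYC O/E. For both genes the Zab and MYC O/E libraries lay well above the WT and Zab + MYC O/E libraries, with no overlap. The rises in MYC O/E over WT were 3.86-fold for HSPA1B (adjusted p 5.93e-15) and 2.51-fold for HSPA1A (adjusted p 4.59e-13). These genes are near-identical copies, so the division of reads between them is uncertain. HSPA6 (chr1:161494330-161496683, + strand of hg19), which in most cells is made only after stress, had 2 reads in each WT library and 24 and 42 in MYC O/E. Its levels were 0.648 and 0.715 CPM in WT, 9.43 and 11.5 in Zab, 6.2 and 10.4 in MYC O/E and 1.04 and 1.49 in Zab + MYC O/E, a 12.2-fold rise in MYC O/E (2.43 ± 0.47). No p-value is given for HSPA6, since it was tested only through the groups where it is high.

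KRTAP2-3 (chr17:39215492-39216366, - strand of hg19), a hair keratin-associated protein, stood at 43.4 and 34.3 CPM in WT, 14.1 and 8.38 in Zab, 2.07 and 1.48 in MYC O/E and 33 and 25.6 in Zab + MYC O/E. Its libraries separated into WT and Zab + MYC O/E at the top, Zab between and MYC O/E lowest, from 8 and 6 reads. The fall in MYC O/E was 21.9-fold (-3.84 ± 0.31). No p-value is given for this fall, since KRTAP2-3 was tested only through groups where it is higher. It has near copies, and its neighbours KRTAP2-1, KRTAP2-2 and KRTAP2-4 were listed at 0 reads in every library. FOXD1, a forkhead factor of kidney stroma and retina, stood at 94.3 and 88.3 CPM in WT, 136 and 165 in Zab, 32 and 34.9 in MYC O/E and 102 and 97.6 in Zab + MYC O/E. It was below WT in MYC O/E (2.73-fold lower, adjusted p 4.51e-10) and above WT in Zab, with no overlap between any groups, although WT and Zab + MYC O/E lay close. On the deposited scale the Zab difference was 0.11 and was not called. KCTD11, another CUL3 adaptor, fell 2.47-fold in MYC O/E (adjusted p 0.00072). C6orf47, whose role is not well known, was at 12.4 and 16.8 CPM against 31.4 and 31.5 in WT (2.15-fold lower, adjusted p 0.000246). The serotonin receptor HTR1D (adjusted p 0.00128), CCDC71L (0.00291), CCDC184 (0.00956) and C6orf226 (0.0169) also fell at these adjusted p-values. Each of these 4 calls was lost without at least 1 library: MYC O/E replicate 2 for HTR1D (0.068), WT replicate 1 for CCDC71L (0.063), either WT library or MYC O/E replicate 2 for CCDC184 (0.054 to 0.096), and either MYC O/E library or WT replicate 1 for C6orf226 (0.051 to 0.11).

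Of 11 tested immediate early and stress-response members, 4 rose and 2 fell, with a median of 0.30, beside 22.2% higher and 21.9% lower among all genes. JUN, a subunit of AP-1, stood at 190.2 and 190.2 CPM in WT, 264 and 269.7 in Zab, 97.6 and 97.9 in MYC O/E and 199 and 192 in Zab + MYC O/E. It was 1.95-fold lower in MYC O/E than in WT (adjusted p 3.14e-10), and no library of the other groups came near the MYC O/E pair. Its relative JUND, which acts in the same dimers, moved the other way: 54.4 and 48.6 CPM in WT, 108 and 115 in Zab, 113 and 136 in MYC O/E and 56.1 and 52.1 in Zab + MYC O/E. That is a rise of 2.42-fold in MYC O/E (adjusted p 7e-09), while JUNB was at 86.2 and 91.5 CPM in WT and 97.6 and 77.6 in MYC O/E and did not pass (adjusted p 0.885). CEBPD and CEBPB, bZIP factors of the acute-phase response, rose 3.31-fold (adjusted p 0.00179) and 1.31-fold (adjusted p 0.00155). IER5L also rose (adjusted p 0.0312), from 10.4 and 2.15 CPM in WT to 13.4 and 10.4 in MYC O/E, and its adjusted p was 0.76 without WT replicate 2, 0.22 without MYC O/E replicate 1 and 0.085 without MYC O/E replicate 2. RHOB, a small GTPase that is quickly induced by stress, was lower in MYC O/E (-0.52 log2, adjusted p 0.0018). Without MYC O/E replicate 1 its adjusted p was 0.079, without WT replicate 1 it was 0.051, and on the deposited scale the difference was -0.03.

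Among developmental factors, SOX12 was at 72.6 and 72.9 CPM in WT and 145 and 144 in MYC O/E, a 1.99-fold rise (adjusted p 1.19e-08). SOX4 fell by 0.36 on the log2 scale (adjusted p 0.0236), but it turned to 0.14 on the deposited scale and was not called without any 1 of WT replicate 1, WT replicate 2 or MYC O/E replicate 2. FOXC1 was called higher (adjusted p 0.0248) and lost that call without WT replicate 1 or MYC O/E replicate 2 (0.24 in each case). Of the Frizzled receptors, FZD7 rose 2.16-fold (adjusted p 0.0021; 0.096 without MYC O/E replicate 1). FZD8 fell by 0.56 on the log2 scale (adjusted p 0.0165; 0.15 without MYC O/E replicate 1, 0.12 without WT replicate 2), and FZD1 and FZD2 did not pass (adjusted p 0.672 and 0.344). SFN, an epithelial 14-3-3 protein and target of p53, was at 147 and 137 CPM in MYC O/E against 285 and 255 in WT, 1.9-fold lower (adjusted p 1.23e-10). ID1 was 1.53-fold lower (adjusted p 1.49e-06), with a difference of -0.11 and no call on the deposited scale. Of 12 tested nucleic acid binding retrogenes, 4 rose and 1 fell, beside 22.2% higher and 21.9% lower among all genes. Outside that list RBM15B, a partner of the m6A writer complex, rose 1.51-fold (adjusted p 2.67e-06) and PURB, which binds purine-rich strands, 1.42-fold (adjusted p 0.00063). CSTF2T, a cleavage stimulation factor retrogene, was at 84.9 and 74.4 CPM in WT and 70.7 and 89.5 in MYC O/E (adjusted p 0.993).

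The second comparison was Zab over WT, where 50 of 199 members rose and 28 fell, beside 49.6% of all genes called (22.5% higher and 27.1% lower). The members' median was 0.14 against -0.08 for all genes. This balance depended on the scale: with library totals in place of TMM the counts were 37 and 37 with a median of -0.02, and on the deposited scale 18 and 85 with a median of -0.39. All genes moved with the scale, from a median of -0.08 to -0.24 and -0.63. On the deposited scale MYC O/E over WT gave 94 higher and 10 lower, with a median over all genes of 0.47 in place of -0.01. Zab over WT and MYC O/E over WT share the WT libraries, so their values stand side by side here without a comparison of their directions.

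The heat shock members were again among the largest differences. HSPA1B rose 3.67-fold (1.86 ± 0.10, adjusted p 1.08e-14) and HSPA1A 3.02-fold (adjusted p 7.7e-15), and both were still called on the deposited scale. HSPA6 was 15.4-fold higher, from 2 reads in each WT library, again without a p-value. Of the 11 tested immediate early and stress-response members, 8 rose and 1, RHOB, fell, with a median of 0.94. Among all genes 22.5% were higher and 27.1% lower. On the deposited scale 4 of the 11 rose, 1 fell and their median was 0.33, where the median over all genes was -0.63. CEBPB stood at 105 and 122 CPM in WT, 213 and 221 in Zab, 152 and 145 in MYC O/E and 116 and 119 in Zab + MYC O/E. Both Zab libraries were the highest of the 8, and the rise over WT was 1.92-fold (0.94 ± 0.10, adjusted p 6.36e-09). CEBPD rose 4.15-fold (adjusted p 0.000249), JUND 2.17-fold (adjusted p 6.7e-08) and JUNB 1.63-fold (adjusted p 0.000125; 0.08 log2 and no call on the deposited scale). JUN rose 1.4-fold (adjusted p 2.45e-05) and IER5 1.33-fold (adjusted p 0.00419), but on the deposited scale these turned to -0.12 and -0.20, and IER5 was not called with library totals (adjusted p 0.091). IER5L was at 20.04 and 28.3 CPM in Zab against 10.4 and 2.15 in WT (3.86-fold, adjusted p 0.00016).

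**Figure D2:**
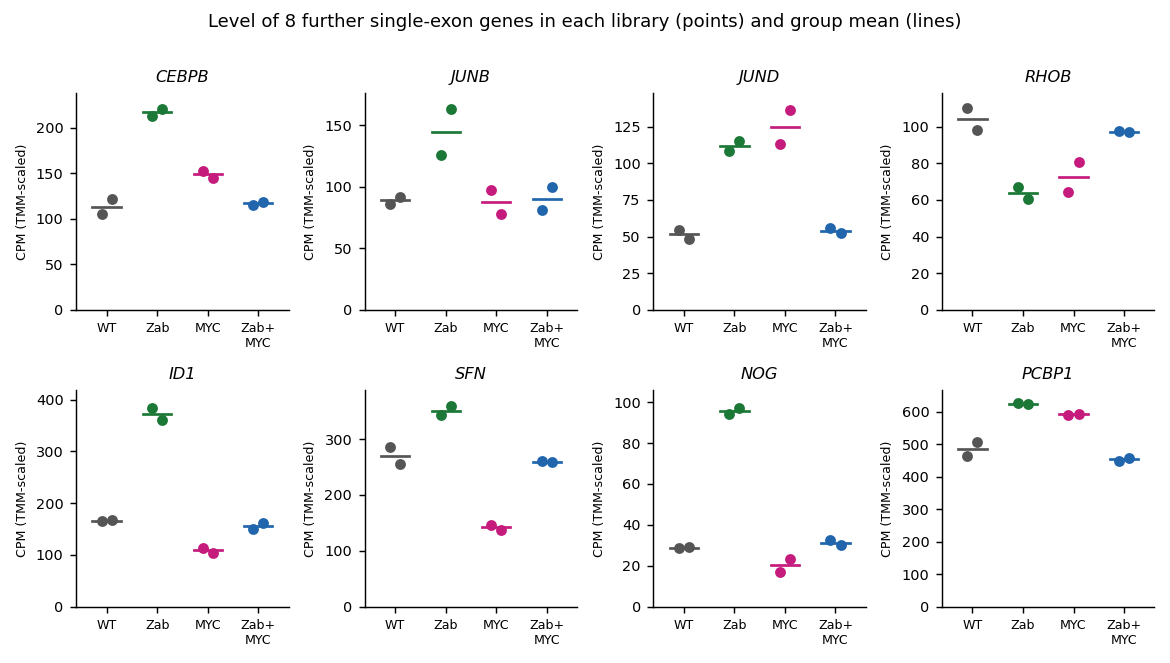
Level in TMM-scaled CPM (linear axis from 0, own scale per gene) of 8 further single-exon genes in each of the 8 libraries (points) and the mean of each group of 2 (lines). CEBPB, ID1 and NOG were highest in both Zab libraries, RHOB was lowest in Zab and MYC O/E, and SFN was lowest in MYC O/E; on the deposited scale SFN and PCBP1 turned below WT in Zab.

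NOG (noggin), a secreted BMP antagonist, stood at 28.5 and 29.3 CPM in WT, 94.3 and 96.9 in Zab, 17 and 23.2 in MYC O/E and 32.4 and 30.3 in Zab + MYC O/E. The Zab libraries were more than 2 times any other, a 3.31-fold rise over WT (1.69 ± 0.19, adjusted p 2.49e-08). ID1, the inhibitor of helix-loop-helix factors, stood at 166 and 167 CPM in WT, 385 and 360.3 in Zab, 113 and 104 in MYC O/E and 151 and 161 in Zab + MYC O/E. It was 2.24-fold higher in Zab than in WT (adjusted p 1.04e-11), again without overlap with any other group. KCTD11 rose 3.06-fold, from 13.6 and 20.02 CPM in WT to 48.3 and 54.5 in Zab (adjusted p 1.87e-05). TMEM158, a membrane protein induced by RAS, rose 3.62-fold (adjusted p 1.14e-07) and IRF2BPL, a transcriptional regulator, 2.68-fold (adjusted p 2.72e-09). FOXD1 rose 1.65-fold (adjusted p 4.3e-05). SOX12 rose 2.09-fold (adjusted p 2.87e-09), while SOX4 was at 83.7 and 72.3 CPM against 87.5 and 86.5 (adjusted p 0.31). Among Frizzled receptors FZD1 (2.18-fold, adjusted p 0.00454) and FZD7 (1.91-fold, adjusted p 0.0062) rose, neither of them called on the deposited scale (adjusted p 0.17 and 0.31), and FZD1 not called without Zab replicate 2 (adjusted p 0.052). HEXIM1, an inhibitor of the elongation kinase P-TEFb, rose 1.58-fold (adjusted p 0.000436; 0.05 log2 and no call on the deposited scale).

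Among the members that fell in Zab was RANBP6, a relative of the importins, at 27.9 and 25.7 CPM in WT, 8.25 and 8.38 in Zab, 16.8 and 14.3 in MYC O/E and 24.4 and 31.3 in Zab + MYC O/E. Its Zab libraries lay below all others, 3.22-fold below WT (-1.58 ± 0.26, adjusted p 1.27e-05). KRTAP2-3 fell 3.45-fold (adjusted p 4.55e-05), and the orphan receptor GPR135 was 4.72-fold lower, from 7.13 and 8.94 CPM to 2.36 and 1.047. TIGD2, PGBD4 and JRKL fell 2.51-fold, 2.61-fold and 2.6-fold (adjusted p 0.00141, 0.0051 and 0.00454). PGBD4 was not called without Zab replicate 1 (adjusted p 0.061) or without WT replicate 2 (0.050). MAP10, a microtubule-associated protein, was at 1.18 and 2.09 CPM against 7.78 and 4.29. GPR135 and MAP10 had 6 reads each over both Zab libraries. They passed the filter on low reads only through groups where they were higher, so no p-value is given for them. RSC1A1, a regulator of the sugar transporter SGLT1, fell 2.2-fold (adjusted p 3.78e-06), and PURA by 0.79 on the log2 scale (adjusted p 0.00613; 0.060 without Zab replicate 2). RHOB fell 1.63-fold (adjusted p 7.44e-05). RRAGA, a GTPase that signals amino acids to mTOR, rose 1.48-fold (adjusted p 0.00639; 0.053 without WT replicate 2 and likewise with library totals) and turned to -0.04 on the deposited scale.

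The 3 comparisons with Zab + MYC O/E were read against the near identity of these libraries to WT. In Zab + MYC O/E over WT no member was called (limma), where 0.576% of all genes were; 10 of the 199 had an unadjusted p under 0.05, and edgeR and DESeq2 on recovered reads also called 0. On the deposited scale 21 members were called higher, where the median over all members was 0.27. The members' median under TMM was 0.00. KCTD12 was at 9.86 and 9.43 CPM against 11.7 and 9.3 in WT, a log2 difference of -0.10 ± 0.25. HSPA1B differed by 0.11 ± 0.10 and NOG by 0.11 ± 0.19.

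In Zab + MYC O/E over MYC O/E, 24 members rose and 48 fell, where 44.6% of all genes were called (22% higher and 22.5% lower), with a median of -0.15 against 0.03 for all genes. The largest falls were in KCTD12 (-3.13 ± 0.25), GPR27 (-2.19 ± 0.40), HSPA6 (-2.01 ± 0.47), CCDC85B (-1.91 ± 0.13), KBTBD6 (-1.85 ± 0.26), HSPA1B (-1.82 ± 0.10) and FRAT2 (-1.66 ± 0.36). The adrenergic receptor ADRA2C fell too, from 8.78 and 10.9 CPM to 2.08 and 2.98 (adjusted p 0.00244). KRTAP2-3 (3.44 ± 0.31), FOXD1 (1.55 ± 0.13), KCTD11 (1.38 ± 0.27) and JUN (0.99 ± 0.08) were the reverse, as were TSPYL4 (adjusted p 0.00041) and HTR1D (adjusted p 0.000863; 0.052 without MYC O/E replicate 2). This comparison and MYC O/E over WT share the MYC O/E libraries.

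In Zab + MYC O/E over Zab, 28 members rose and 50 fell, where 49.5% of all genes were called (26.8% higher and 22.6% lower), with a median of -0.17 against 0.06. On the deposited scale the counts turned to 114 and 10, and with library totals they were 39 and 37. GPR135 (2.20 ± 0.41), PGBD4 (1.66 ± 0.36), RANBP6 (1.62 ± 0.26) and KRTAP2-3 (1.33 ± 0.31) rose. CHML, a Rab escort protein, rose from 27.1 and 17.8 CPM in Zab to 56.1 and 51.1 (1.25 ± 0.18, adjusted p 1.82e-06), and EPM2AIP1 rose from 14.1 and 8.38 to 27.5 and 25.3 CPM (adjusted p 0.00105). HSPA6 (-2.34 ± 0.47), CEBPD (-1.83 ± 0.38), HSPA1B (-1.75 ± 0.10), NOG (-1.58 ± 0.19), HSPA1A (-1.55 ± 0.08), IRF2BPL (-1.52 ± 0.14) and TMEM158 (-1.46 ± 0.22) fell. This comparison shares the Zab libraries with Zab over WT. An interaction term (Zab + MYC O/E over MYC O/E, minus Zab over WT) was called higher for 36 members and lower for 60, where 53.3% of all genes were called, 29.3% higher and 24% lower.

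**Figure D3:**
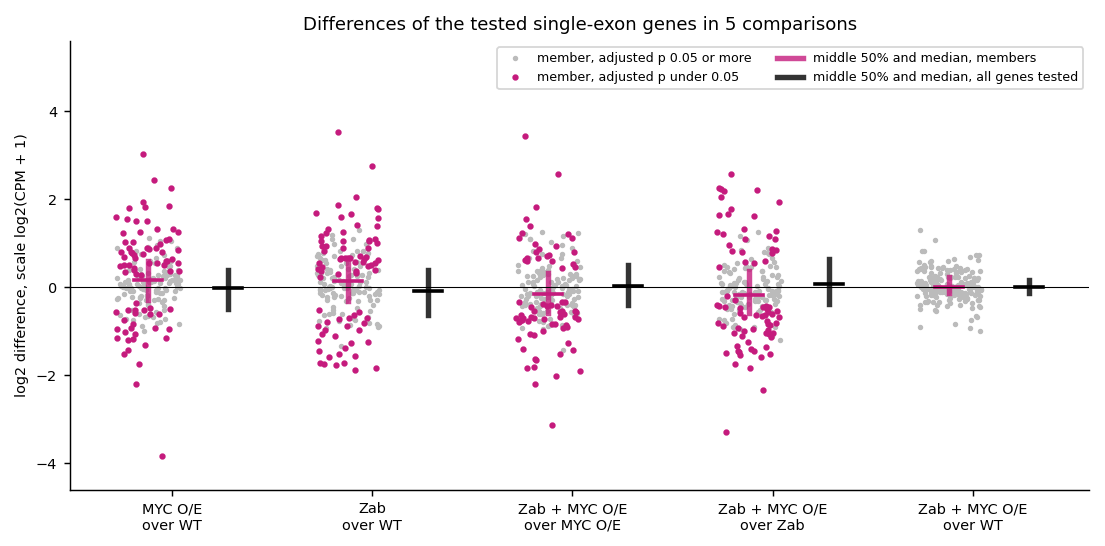
Difference of each of the 199 tested single-exon genes (points) on the log2(CPM + 1) scale in 5 comparisons, with calls at adjusted p under 0.05 in colour. Bars give the middle 50% and the median of these genes and, to the right, of all 11985 genes tested: members' medians were 0.16, 0.14, -0.15, -0.17 and 0.00 from left to right, and with library totals those of Zab over WT and of Zab + MYC O/E over Zab were -0.02 and 0.02.

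The members were set beside 872 tested multi-exon genes that span under 5 kb, the spliced genes most like them in length. In MYC O/E over WT 21.6% of these were called higher and 21.4% lower, against 25.6% and 14.1% of members. In Zab over WT the spliced short genes had 39.4% higher and 8.94% lower and a median of 0.35, and members had 25.1% higher, 14.1% lower and a median of 0.14. The difference between the sets was not tested. By length, members' medians in Zab over WT were 0.25 for the 55 up to 2 kb, 0.25 for the 84 from 2 to 4 kb and -0.04 for the 60 over 4 kb. In MYC O/E over WT these medians were -0.02, 0.19 and 0.20.

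**Figure D4:**
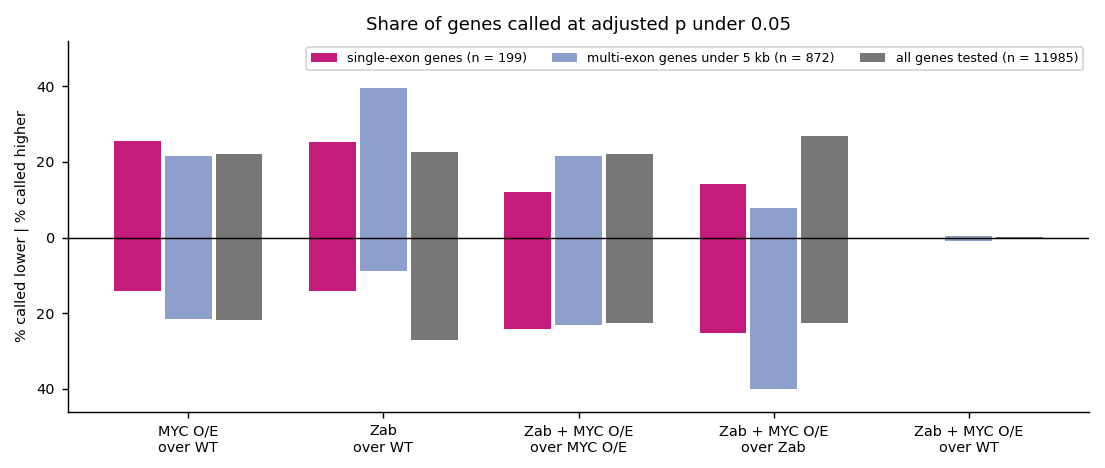
Share of tested genes called higher (above 0) and lower (below 0) at adjusted p under 0.05 in 5 comparisons, for 199 single-exon genes, 872 multi-exon genes under 5 kb and all 11985 genes tested. In Zab over WT, 25.1% of single-exon and 39.4% of short multi-exon genes were called higher; with library totals single-exon genes split evenly, 37 higher and 37 lower.

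Of the 703 members, 77 overlap another listed gene on the same strand and 72 of these lie wholly within it, where unspliced RNA of the host gene falls on the member and the reads cannot be told apart. Among the 18 of them that were tested, Zab over WT gave 1 higher and 5 lower with a median of -0.53, beside 22.5% higher and 27.1% lower among all genes. The other 181 members gave 49 higher and 23 lower with a median of 0.22, and the difference was not tested. RSC1A1 lies in DDI2, a retroviral protease-like gene, and their differences in Zab were -1.12 and -0.85 (log2). CHML lies in OPN3, with differences of -0.98 and -0.997 in Zab, and of 0.80 and -0.76 in MYC O/E. KIAA0754 lies in MACF1, a large cytoskeletal linker, and rose in both MYC O/E (1.23) and Zab (0.99) where MACF1 differed by -0.29 and -0.01. EID3, inside the thioredoxin reductase gene TXNRD1, was lower in Zab (-1.83) while its host differed by 0.44. EID3 had 3 reads over both Zab libraries and passed the filter only through groups where it was higher, so no test is given. Another 63 members overlap a listed gene on the opposite strand, which the authors' strand-specific counting keeps apart.

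Single-exon messages leave the nucleus and gain their tails without help from splicing, so genes of 2 such routes were listed beside the members. Of 23 genes of the TREX complex and mRNA export, 10 rose and none fell in MYC O/E over WT, with a median of 0.34, and 8 rose and 5 fell in Zab over WT, with a median of 0.12. Of 25 cleavage and polyadenylation genes, 8 rose and 4 fell in MYC O/E, and 7 rose and 9 fell in Zab. Among all genes tested 22.2% were higher and 21.9% lower in MYC O/E, and 22.5% and 27.1% in Zab. No link between these lists and the members was tested.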

How the data were processed

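TT-seq libraries of U2OS RNA labelled with 4-SU were sequenced, 2 for each of 4 genotypes. Tools listed without roles in the submitters' processing notes are bedtools 2.29.2, SAMtools 1.11, STAR and Trim Galore 0.6.6, with builds dm6 and hg19. Per the file headers, the authors used HOMER to sum exon reads per coding RefSeq gene (hg19) on the opposite strand, keeping 1 transcript per symbol in each library. The deposited values are a signal: whole reads times a factor per library between 0.204 and 0.259. The sources used here do not give the basis of this factor. Dividing by it gave whole reads (within 0.02) for 99.96% to 100% of values per library. Between 77.2% and 82.7% of values from 1 to 20 reads were even, so reads came mostly in twos and counting intervals are too narrow.

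Deposited values were turned into CPM and scaled by TMM (edgeR 4.0.16). Genes passing filterByExpr at its minimum of 10 reads (11985) entered a fit in limma 3.58.1 (R 4.3.3), with a mean-variance trend on log2(CPM + 1), of all 8 libraries with a term per group and 4 residual degrees of freedom. Calls are at a Benjamini-Hochberg adjusted p under 0.05 over all 11985 genes. The log2 scale understates changes of low genes; folds are ratios of mean CPM. The deposited scale means those values without TMM. The script was tested on simulated data. edgeR and DESeq2 1.42.0 on recovered reads were alternatives, and called 55 and 43 members higher and 28 and 23 lower in MYC O/E over WT, and 53 and 46 higher and 24 and 18 lower in Zab over WT.

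Members and lists were chosen with earlier results of these data known. The genes named are the 8 largest rises and falls per comparison among called members averaging 5 CPM or more whose groups did not overlap (5 in the interaction, without the overlap condition), 24 fixed genes of which IER2 and ARF6 were not members, members of the lists with the highest level or the largest change, and the 8 highest per kb. JUNB, HEXIM1, RBM15B, EID3 and KIAA0754, and the other members set beside a host gene, were chosen after their values were seen. Members with near-identical copies (HSPA1A with HSPA1B, KRTAP2-3, EIF5AL1, MTRNR2L genes) are uncertain. Gene positions are those of the files (hg19) and promoter positions those of RefSeq (GRCh38.p14).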

Additional observations from a re-analysis of the deposited data

Results flagged for a closer look

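An interaction term in the limma fit was Zab + MYC O/E over MYC O/E, minus Zab over WT. Libraries labelled Zab + MYC O/E were not high in MYC (762 CPM, against 764 in WT) and lay near WT. The term thus largely restates the MYC O/E and Zab differences from WT, with signs reversed. It was called higher for 36 members and lower for 60 of 199, beside 53.3% of all genes called, 29.3% higher and 24% lower. The median over members was -0.24 and over all genes 0.14. Among called members with at least 5 CPM on average, the largest positive terms were KRTAP2-3 at 5.18 and GPR135 at 2.53. Next were RANBP6 at 2.37 (adjusted p 4.34e-06), CCDC184 at 1.98 (0.00515) and CCDC71L at 1.98 (0.00471). No p-value is given for KRTAP2-3 or GPR135, which passed the filter only through groups where they are higher. KRTAP2-3 was low in both Zab and MYC O/E and near its WT level in Zab + MYC O/E. The largest negative terms were HSPA6 at -4.77 (no p-value given, since it passed the filter only where it is high), KCTD12 at -3.69 (adjusted p 9.89e-10), HSPA1B at -3.68 (3.76e-18), CEBPD at -3.33 (6.99e-06) and CCDC85B at -3.23 (3.84e-14). For all 10 the Zab + MYC O/E libraries lay near WT, with no adjusted p under 0.05 between those groups. Beside these values stand the levels of ADAR, high in WT and Zab + MYC O/E and low in the others, whose part in the terms was not tested. Groups of 2 libraries were too small to look for outlying libraries.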

How the results depend on the processing

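The scale set most. On the deposited scale members called higher and lower were 94 and 10 in MYC O/E over WT, 18 and 85 in Zab over WT, 114 and 10 in Zab + MYC O/E over Zab, and 21 higher in Zab + MYC O/E over WT. There SOX4 turned to 0.14 in MYC O/E over WT. GPX1 (-0.36), HNRNPA0 (-0.30), IER5 (-0.20), JUN (-0.12), PCBP1 (-0.24), RRAGA (-0.0376) and SFN (-0.23) turned in Zab over WT. FOXD1 (0.29), IER5 (0.40), JUN (0.43), KCTD12 (0.15), RRAGA (0.19) and SOX12 (0.049) turned in Zab + MYC O/E over Zab. With the WT and Zab + MYC O/E pairs each taken as 1 sample, calls fell to 14 lower in MYC O/E over WT, 13 lower in Zab over WT, 14 higher in Zab + MYC O/E over MYC O/E and 16 higher in the interaction. DESeq2 called 18 lower in Zab over WT. Leaving out 1 library gave, as higher and lower, 36 to 58 and 15 to 32 in MYC O/E over WT, 44 to 59 and 21 to 30 in Zab over WT, 14 to 26 and 35 to 54 in Zab + MYC O/E over MYC O/E, 18 to 32 and 39 to 54 in Zab + MYC O/E over Zab, and 24 to 36 and 49 to 63 in the interaction. The lowest came without WT replicate 1 (15 lower, MYC O/E over WT) and without Zab + MYC O/E replicate 1 (14 and 18 higher).

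Same-numbered libraries did not deviate together (correlations of -0.0126 to -0.0019 over 8467 genes), so the numbers were not taken as pairs; with the replicate number as a block the counts were 52 and 28 in MYC O/E over WT, 52 and 27 in Zab over WT, 24 and 49, 28 and 51, 0 and 0, and 36 and 59 in the interaction, and no named gene's call changed. Of 230 differences of named genes, direction and call were both kept by 163 on the deposited scale (14 turned), 190 with the pairs as 1 sample, 211 with library totals, 218 with DESeq2, 226 with edgeR and 228 with either other pseudocount. Depth limits members under 20 CPM, where the median standard error was 0.44.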

Other observations

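KLHDC7B, a kelch domain protein below the level that the naming rule asks, was chosen after its values were seen. It had 22 and 28 reads in the Zab libraries, 2 in WT and 2 in MYC O/E, and 4 in Zab + MYC O/E. It passed the filter on low reads only through the Zab libraries, so no test of it is given. Type I interferon members, for comparison, had 4 reads over all libraries.

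Low members that fell had few reads too. TCIM, a regulator of Wnt signalling, had 14 reads in WT and none in MYC O/E. Since reads came mostly in twos, no bound on its fold is given. The bitter taste receptor TAS2R20 and the POU factor POU5F2 had 14 reads each in WT and none in Zab, again without a bound. Both lie in host genes, PRH1 and FAM172A, whose own differences were -1.02 and -0.47 (log2). Potassium channel members KCNJ11 and KCNA3, of which the first is the pore of the ATP-sensitive channel, were higher in MYC O/E than in WT (4.37-fold and 4.37-fold). They had 9 and 8 reads in WT and 52 and 47 in MYC O/E, over both libraries. Both passed the filter on low reads only through groups where they were higher, so no test of them is given. KCNF1, the other tested potassium channel member, differed by 0.31 log2 in MYC O/E over WT (limma, adjusted p 0.593).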
